A study of Mus musculus with 2 samples.

Results

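The genes Nfkb1, Nfkb2, Rel, Rela and Relb encode the 5 subunits of the mouse NF-kB transcription factor family. They were chosen by symbol, matched to gene identifiers through the transcript names in the deposited tables, and every gene and transcript row of those identifiers was taken. They are 5 of 55536 annotated genes, of which 22028 are protein-coding, and have 36 of 141862 annotated transcripts. RNA was extracted from the chromatin fraction of C57BL/6J bone marrow-derived macrophages that had been exposed to lipid A at 100 ng/ml for 75 min, then depleted of ribosomal RNA and sequenced. There is 1 group with 2 libraries, made from 250 ng of RNA in replicate 1 and 500 ng in replicate 2. Both share a donor label, the mouse's age and sex were not collected, and separate animals are not stated, so each SD may be technical. No untreated cells, other time or other fraction is analysed here, so no value below is a response to lipid A.

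NF-kB subunits share a Rel homology domain, through which they form dimers and bind kappaB sites in DNA. RelA, c-Rel and RelB, the products of Rela, Rel and Relb, carry transactivation domains. Nfkb1 and Nfkb2 encode long precursors, p105 and p100, whose amino-terminal parts become the DNA-binding subunits p50 and p52 and whose carboxy-terminal ankyrin repeats act as inhibitors. In macrophages lipid A engages Toll-like receptor 4 (TLR4), whose signal frees dimers from their IkB inhibitors, and several of the subunit and inhibitor genes are themselves known NF-kB targets. RNA on chromatin is enriched for transcripts that are still being made or spliced.

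Annotated genes held 21453621 estimated counts in replicate 1 and 29638768 in replicate 2. Levels are in TPM, a share of all RNA in the table after length scaling. Protein-coding genes took 14.0% of TPM in replicate 1 and 25.0% in replicate 2, and expressed protein-coding genes had a median TPM of 5.82 and 10.4. A gene was called expressed at 1 TPM or more in both libraries. Of 10 macrophage markers 9 were expressed, the exception being Fcgr1 at 0.93 and 2.09 TPM. None of the 31 markers of T and NK cells, B cells, neutrophils and progenitors, dendritic, stromal, and mast and erythroid cells was. Their summed levels per list lay between 0 and 2.57 TPM, against 434 and 683 TPM for the macrophage list. Of the T and NK cell list, Cd3e, Cd3g and Cd2 were at 0 in both libraries, and Lck had 0 and 0.67 TPM. A second quantification of the same reads put the T cell gene Cd3d at 13.0 and 28.8 TPM. There the B cell gene Ebf1 and the dendritic cell gene Zbtb46 also had 1 TPM or more in both libraries, at most 4.11 TPM. The part of other cells in the results was not tested. In such bulk RNA, fewer cells and less RNA per cell cannot be told apart.

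The RefSeq promoter table (GRCm38.p6) held windows for Rel, Rela and Nfkb2, which are shown because subunits of the family bind kappaB sites and because Nfkb2 has separate starts whose transcripts were quantified apart. Capitals mark matches to the kappaB consensus on either strand, including overlapping matches. Bases inside annotated exons were left off, except at the upstream Nfkb2 start. It lies within the first exon of Nfkb2-206, and the 30 bases shown there are all inside that exon.
Rel, chr11:23770971-23771219, minus strand: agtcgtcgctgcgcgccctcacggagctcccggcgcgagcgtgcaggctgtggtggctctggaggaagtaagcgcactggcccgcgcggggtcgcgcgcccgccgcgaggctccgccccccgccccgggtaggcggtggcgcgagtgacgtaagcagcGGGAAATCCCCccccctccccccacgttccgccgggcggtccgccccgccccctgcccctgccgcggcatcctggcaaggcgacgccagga
Nfkb2 downstream start, chr19:46305445-46305694, plus strand: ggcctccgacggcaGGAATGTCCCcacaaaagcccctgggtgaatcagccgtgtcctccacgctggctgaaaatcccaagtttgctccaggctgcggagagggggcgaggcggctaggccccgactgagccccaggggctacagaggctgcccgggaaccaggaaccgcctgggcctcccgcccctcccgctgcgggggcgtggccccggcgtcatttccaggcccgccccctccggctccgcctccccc
Nfkb2 upstream start, chr19:46304688-46304717, plus strand: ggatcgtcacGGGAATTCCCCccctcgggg
Rela, chr19:5637291-5637482, plus strand: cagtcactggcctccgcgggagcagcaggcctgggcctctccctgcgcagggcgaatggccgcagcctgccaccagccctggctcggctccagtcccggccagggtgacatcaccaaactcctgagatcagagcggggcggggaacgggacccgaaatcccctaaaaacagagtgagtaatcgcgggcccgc
The Rel window held 3 overlapping matches in an 11-base run 82 to 92 bases before the RefSeq start, since the run reads as a match on both strands. The 300-base window of the upstream Nfkb2 start held 4 matches, 3 of them overlapping at 29 to 39 bases before the start and 1 at 2 to 11 bases before it. The window of the downstream Nfkb2 start held 2 matches, 1 of them 227 to 236 bases before the start and printed above. A further Nfkb2 window, for a start at chr19:46305930, held 1 match at chr19:46305705-46305714, the same letters as the second match of the downstream window. The Rela window held 0. Over all mouse promoter windows of this length, 1480 of 32851 (4.51%) held a match, and 1388 of 27025 genes with a window (5.14%) had a match in at least 1 of them. These matches are letters in a window, and no binding was measured here.

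All 5 subunit genes were expressed, against 17.4% of all annotated genes and 34.7% of protein-coding genes. Nfkb1 had the most chromatin RNA, followed by Nfkb2 and Relb, with Rel and Rela at the low end in both libraries apart from Rel in replicate 2. The medians of the 5 genes, 69.8 and 76.2 TPM, stood above the medians of expressed protein-coding genes given above.

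**Figure D1:**
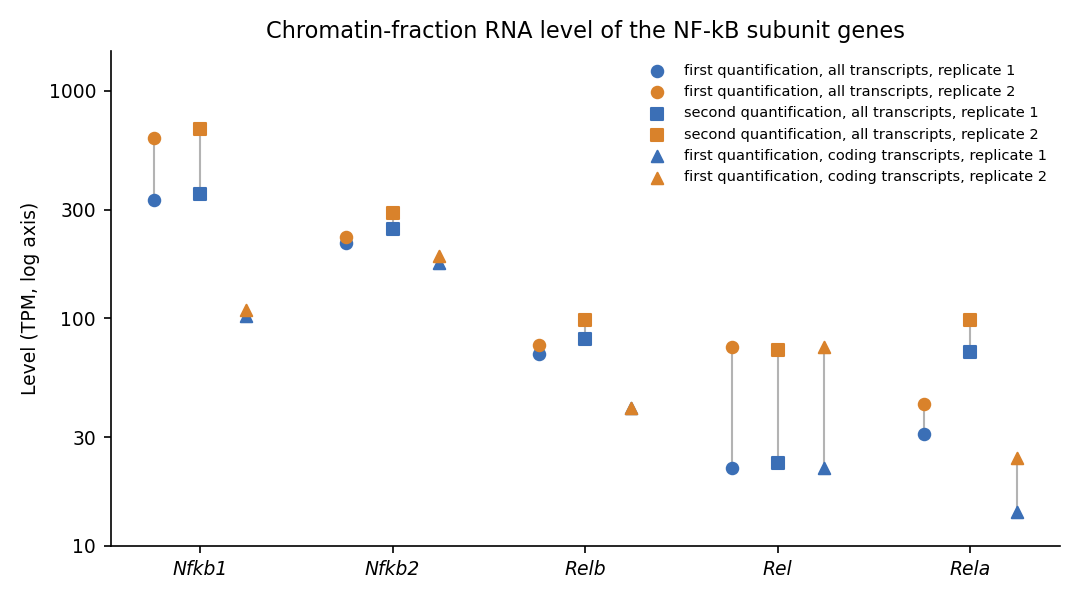
Level of each subunit gene in TPM (log axis) in replicate 1 (blue) and replicate 2 (orange), joined by a line, for the first quantification, the second quantification and the coding transcripts of the first. Nfkb1 leads in both libraries over all transcripts and drops below Nfkb2 when coding transcripts alone are counted, and the replicates of Rel lie furthest apart.

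Nfkb1, at chr3:135584655-135691547 on the minus strand of mm10, had 331 TPM in replicate 1 and 619 TPM in replicate 2 (475 ± 203, SD, n = 2). These came from 27105 and 54562 estimated counts. It ranked 26 in replicate 1 and 22 in replicate 2 among 7633 expressed protein-coding genes. Of the 5 genes it was the highest in each library and in both quantifications, with 351 and 682 TPM in the second.

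Nfkb2, at chr19:46304320-46312385 on the plus strand, had 214 TPM in replicate 1 and 227 TPM in replicate 2 (221 ± 9.12, SD, n = 2). It ranked 66 in replicate 1 and 164 in replicate 2 among the same genes. The ratio of Nfkb1 to Nfkb2 was 1.55 in replicate 1 and 2.73 in replicate 2. Of the 5 genes Nfkb2 alone had a posterior standard deviation above 0 for its estimated count, at 6.6 counts in replicate 1 and 8.8 in replicate 2.

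Relb, at chr7:19606217-19629438 on the minus strand, encodes the subunit that pairs mainly with the Nfkb2 product. It had 69.8 TPM in replicate 1 and 76.2 TPM in replicate 2 (73.0 ± 4.49, SD, n = 2). Nfkb2 exceeded Relb 3.07-fold in replicate 1 and 2.98-fold in replicate 2, and 3.05-fold and 2.96-fold in the second quantification. This was the steadiest of the ratios among the 5 genes.

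Rela, at chr19:5637483-5648130 on the plus strand, encodes the transactivating partner of p50 in the most studied NF-kB dimer. It had 31.1 TPM in replicate 1 and 41.8 TPM in replicate 2 (36.5 ± 7.58, SD, n = 2). In the second quantification it was higher in both libraries, at 71.1 and 98.4 TPM. Nfkb1 exceeded Rela 10.6-fold in replicate 1 and 14.8-fold in replicate 2, and by 4.93-fold and 6.93-fold in the second quantification.

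Rel, at chr11:23736847-23770970 on the minus strand, encodes c-Rel, a subunit found mainly in blood and immune cells. It had 22.0 TPM in replicate 1 and 74.6 TPM in replicate 2 (48.3 ± 37.2, SD, n = 2), and 23.0 and 72.3 TPM in the second quantification. Rel was the lowest of the 5 in replicate 1 and stood beside Relb in replicate 2. The log2 ratio of Rel to Rela was -0.50 in replicate 1 and 0.84 in replicate 2, so the order of these genes differed between the libraries. In the second quantification it was -1.63 and -0.44, with Rel below Rela in both. Levels of Nfkb1 and Nfkb2, and of Nfkb2 and Relb, did not overlap between the genes in either quantification. Levels of Rel overlapped those of Rela in both quantifications and those of Relb in the first only, and levels of Relb and Rela overlapped in the second only.

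The protein-coding genes closest in level to each subunit gene over the 2 libraries, by Euclidean distance of log2(TPM + 1), were Plek and Srsf5 for Nfkb1 and Mid1 and Pde1b for Nfkb2. For Rel they were Slc23a2 at 21.3 and 75.3 TPM and Dennd4a at 22.7 and 76.3 TPM. Cipc and Vwf were closest to Rela, and Sbf1 and Asap1 to Relb. The likeness held less well in the second quantification, where Plek had 664 and 1244 TPM, Mid1 1371 and 1287 TPM and Slc23a2 60.4 and 211 TPM. With 2 libraries it is one of level and of the difference between libraries only.

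The libraries were then compared gene by gene with an exact binomial test on rounded counts, scaled by TMM (a scaling that assumes most genes are alike). The test compares these 2 libraries, not conditions, and covers counting error only. None of the 5 subunit genes reached a 2-fold difference with an adjusted p under 0.05, against 11.8% of 14442 genes tested. All 5 had an unadjusted p under 0.05 by this exact test, but 50.6% of all genes tested had even an adjusted p under 0.05. At any fold, 1 subunit gene (Rel) was higher in replicate 2 and 4 were lower, where 25.2% of genes tested were higher and 25.4% lower.

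**Figure D2:**
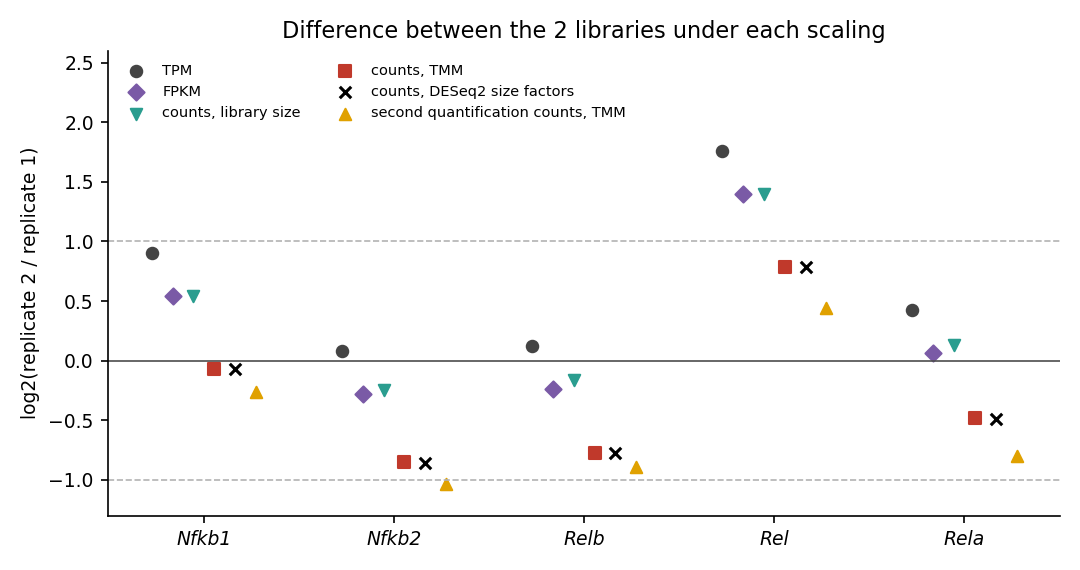
log2 ratio of replicate 2 to replicate 1 for each subunit gene under 6 scalings, with dashed lines at a 2-fold difference in either direction. Rel is the highest of the 5 under each scaling, and the signs of Nfkb1, Nfkb2, Relb and Rela depend on the scaling.

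Rel had 4719 counts in replicate 1 and 17193 in replicate 2. It was 3.39-fold higher in replicate 2 by TPM, 2.64-fold by library size and 1.73-fold after TMM scaling (adjusted p = 1.35e-265 by the exact binomial test with Benjamini-Hochberg adjustment). Its TMM ratio was at the percentile 93.7 of expressed protein-coding genes. Scaling by library size alone would have called Rel at 2-fold, as it did 27.5% of the genes tested.

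Nfkb2 and Relb differed the other way once scaled by TMM. After TMM scaling the log2 ratio of replicate 2 to replicate 1 was -0.85 for Nfkb2 and -0.77 for Relb, against -0.48 for Rela and -0.07 for Nfkb1 (adjusted p = 3.22e-09 for Nfkb1, same test). By TPM the same 4 genes were higher in replicate 2, by 1.06-fold for Nfkb2, 1.09-fold for Relb, 1.34-fold for Rela and 1.87-fold for Nfkb1. TMM scaling placed the median expressed protein-coding gene at -0.12, and relative to that median Nfkb1 stood at 0.05. Relative to the median of expressed protein-coding genes on 4 scales (TPM with and without the added 1, the second quantification, and TMM-scaled counts), the log2 ratio of Rel lay 0.73 to 1.05 above and that of Nfkb1 0.05 to 0.23 above, while those of Nfkb2, Relb and Rela lay below on each. The second quantification would have called Nfkb2 at 2-fold lower in replicate 2, with a log2 ratio of -1.03. It called 8.96% of its tested genes in either direction. Rescaled over protein-coding genes alone, Nfkb2 stood at 1531 and 909 TPM in replicates 1 and 2, Relb at 499 and 305, and Rel at 157 and 299. RNA input differed between the libraries, and input and replicate cannot be told apart.

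The deposited credibility intervals describe read assignment within a library. By TPM the median expressed protein-coding gene was 1.73-fold higher in replicate 2. Whether the intervals of a gene overlap between the libraries was therefore not read as a result. For Rel the intervals ran between 20.5 and 21.7 TPM in replicate 1 and between 70.7 and 73.0 TPM in replicate 2. The deposited TPM of Nfkb1, Nfkb2 and Rel lay outside its own interval in both libraries, so the intervals are not used as errors here.

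Chromatin RNA of Nfkb1 lay mainly on transcripts annotated with retained introns, whereas Nfkb2 lay mainly on coding transcripts. Of the gene's transcript TPM, retained-intron transcripts held 66.5% in replicate 1 and 80.2% in replicate 2 for Nfkb1 (73.4% ± 9.69, SD, n = 2). The share was 9.90% ± 1.21 for Nfkb2, 32.0% ± 2.27 for Rela and 30.3% ± 7.07 for Relb. Among 5233 expressed protein-coding genes with an annotated retained-intron transcript the median was 45.9%. By estimated counts, without length scaling, the share of Relb was 43.3% against a median of 29.3%, so Relb lay below the median gene by TPM and above it by counts. The mean share of Nfkb1 was at the percentile 87.8 of those genes and that of Nfkb2 at 6.27. In the second quantification the shares were 63.8% for Nfkb1 and 16.0% for Nfkb2, at the percentiles 76.2 and 11.5. Rel has a single annotated transcript, which is coding, so its share cannot show intron retention.

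**Figure D3:**
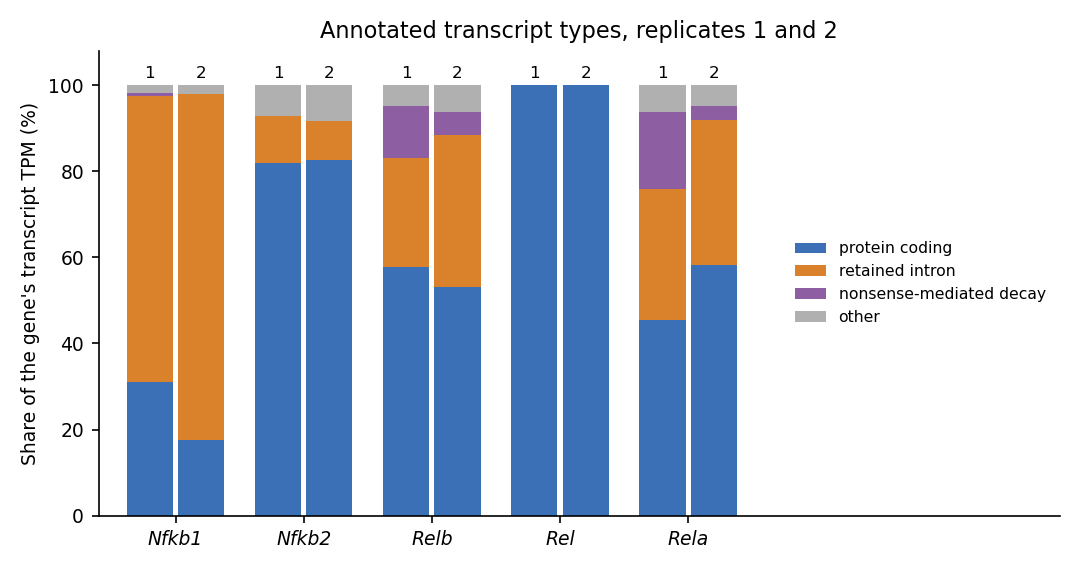
Share of each gene's transcript TPM, first quantification, on coding, retained-intron, nonsense-mediated decay and other transcripts, with replicate 1 on the left and replicate 2 on the right of each pair. Retained-intron transcripts hold 66.5% and 80.2% of Nfkb1 and 10.8% and 9.05% of Nfkb2.

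Of 10 Nfkb1 transcripts, 6 held at least 5% of the gene's TPM in a library in the first quantification. In the second the processed transcript Nfkb1-205 also did, with 45.9 and 89.7 TPM, against 6.17 and 12.6 TPM in the first. The levels that follow are from the first. Nfkb1-204, a retained-intron transcript that begins at the gene start and ends 81.0 kb into the gene, had 111 and 243 TPM in replicates 1 and 2. Of its 3383 bases, 1825 lie outside the exons of full-length coding transcripts. Nfkb1-208 had 36.5 and 85.8 TPM and Nfkb1-210 had 26.9 and 90.3 TPM. Each is 1 unspliced exon that lies mostly in intron, with 3985 of 4149 and 1859 of 2001 bases outside coding-transcript exons. Nfkb1-202, which covers the 3' part of the gene with 188 such bases, had 45.9 and 77.5 TPM.

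The annotated sequences of these transcripts cross between coding exons and introns, and the junctions below show where. Each line gives 20 exon bases and 20 intron bases in the direction of transcription, with the first 6 intron bases in capitals at a donor site and the last 2 in capitals at an acceptor site. Introns are numbered in Nfkb1-206, which has 22.
Nfkb1-208, acceptor of intron 5, chr3:135618948-135618987: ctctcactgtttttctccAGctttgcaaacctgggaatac
Nfkb1-208, donor of intron 6, chr3:135618784-135618823: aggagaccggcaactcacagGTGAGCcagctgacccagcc
Nfkb1-204, donor of intron 10, chr3:135612394-135612433: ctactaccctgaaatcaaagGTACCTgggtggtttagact
Nfkb1-210, donor of intron 14, chr3:135603690-135603729: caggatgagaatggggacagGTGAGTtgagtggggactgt
Nfkb1-204 runs 1824 bases into intron 10, of 4118 bases in all, and Nfkb1-210 covers 85.3% of intron 14. All 4 junctions lie beside coding sequence. The deposited tables hold sums per transcript, so reads at each junction are not analysed here.

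**Figure D4:**
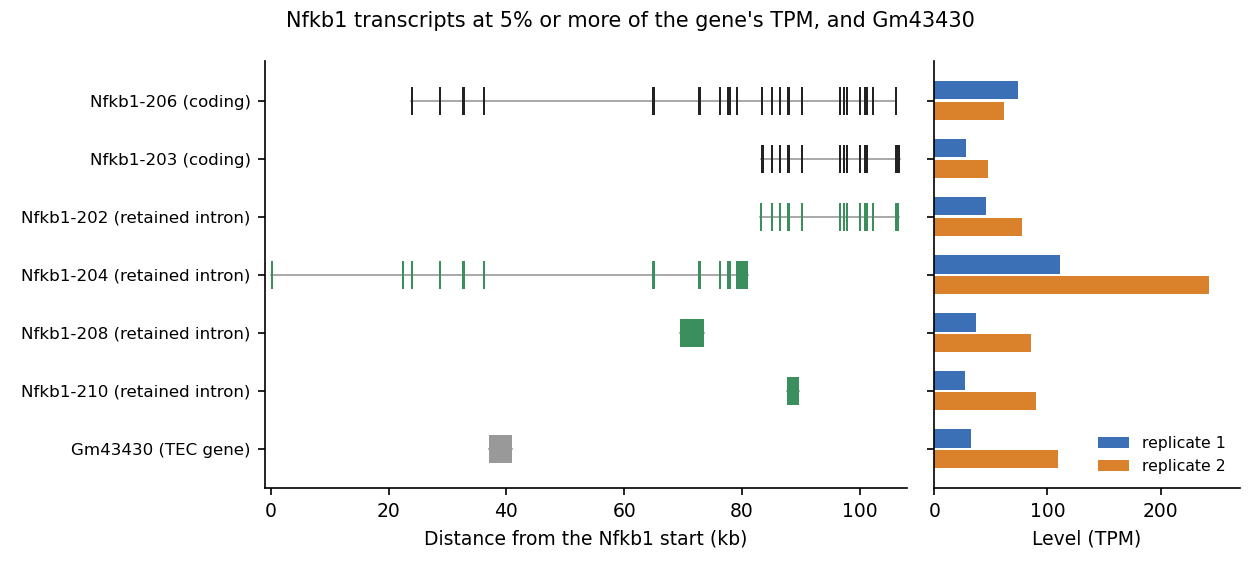
Left, exons of Gm43430 and of the Nfkb1 transcripts that hold 5% or more of the gene's TPM in the first quantification. Positions are distances from the Nfkb1 start in kb. Coding transcripts are in black, retained-intron transcripts in green and Gm43430 in grey, with the shortest exons widened to be visible. Right, TPM of each in replicate 1 (blue) and replicate 2 (orange); by TPM the retained-intron transcripts and Gm43430 are higher in replicate 2, and the coding Nfkb1-206 is not.

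The retained-intron and coding transcripts of Nfkb1 differed unequally between the libraries. The retained-intron transcripts summed to 220 TPM in replicate 1 and 496 TPM in replicate 2, and the coding transcripts to 103 and 109 TPM. On the log2 scale the ratio of replicate 2 to replicate 1 was 1.17 for retained-intron transcripts and 0.09 for coding transcripts, a difference of 1.08. Among 3277 genes with both kinds at 1 TPM or more the median difference was 0.16 and Nfkb1 stood at the percentile 93.9. In the second quantification the difference was 1.04, at the percentile 94.8 of 3758 genes. Nfkb1 was not alone in this: the difference of Relb was 0.60 in the first quantification and 1.10 in the second, at the percentiles 78.1 and 95.9. For Nfkb2 and Rela it was below 0 in both. Which kind carried the difference of Nfkb1 depended on the scale. The median of the 3277 genes was itself higher in replicate 2, by 0.69 for coding and 0.86 for retained-intron transcripts. Relative to those medians Nfkb1 stood at -0.60 for coding and 0.31 for retained-intron transcripts. After TMM scaling of counts, coding transcripts were at 0.522-fold and retained-intron transcripts at 1.14-fold in replicate 2, and at 0.471-fold and 0.990-fold in the second quantification. This is a comparison of 2 libraries without a test.

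The coding transcript Nfkb1-206, with an open reading frame of 971 codons, had 74.2 TPM in replicate 1 and 61.4 TPM in replicate 2. Nfkb1-203, a shorter coding transcript of the 3' part of the gene, had 28.3 and 47.8 TPM. In the second quantification Nfkb1-206 had 80.7 and 79.7 TPM and Nfkb1-203 had 8.91 and 21.1 TPM. Nfkb1-201, which also has 971 codons and more untranslated sequence, was listed at 0 in both libraries and at 1.28 and 1.40 TPM in the second quantification. Transcripts that share exons this closely are told apart by few reads.

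Gm43430, a gene model of the TEC class that awaits experimental evidence, lies inside Nfkb1 on the same strand, 37.0 to 40.9 kb from the start, in sequence that Nfkb1 transcripts splice out. It had 32.4 TPM in replicate 1 and 109 TPM in replicate 2, a ratio of 3.38. Its reads cannot be told apart from unspliced Nfkb1 RNA. They are not part of the Nfkb1 values above.

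Counted on coding transcripts alone, the order of the genes changed. Nfkb2 then led with 176 and 188 TPM, above Nfkb1 with 103 and 109 TPM. Relb had 40.4 and 40.5 TPM and Rel, with its single transcript, 22.0 and 74.6 TPM, so Relb came next in replicate 1 and Rel in replicate 2. Rela was the lowest in both libraries, with 14.1 and 24.3 TPM. The second quantification also put coding Nfkb2, at 171 and 190 TPM, above coding Nfkb1, at 90.8 and 102 TPM. Nfkb1 thus came first only with its retained-intron transcripts counted. These also hold exon sequence: 188 of 2520 bases of Nfkb1-202 and 1825 of 3383 bases of Nfkb1-204 lie outside the exons of full-length coding transcripts.

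Nfkb2 has coding transcripts from separate starts. Those from the upstream starts (Nfkb2-201, Nfkb2-204 and Nfkb2-206) summed to 114 TPM in replicate 1 and 116 TPM in replicate 2. Nfkb2-202, whose annotated start at chr19:46305696 lies next to the downstream promoter printed above, had 61.4 and 71.2 TPM. In the second quantification the order was the other way, with 76.6 and 81.1 TPM for the upstream starts and 94.3 and 109 TPM for Nfkb2-202. Use of the starts could thus not be ordered. Within the upstream group Nfkb2-201 had 79.0 TPM in replicate 1 and 55.2 TPM in replicate 2, and Nfkb2-206 had 30.2 and 53.8 TPM. In the second quantification Nfkb2-201 had 35.4 and 14.6 TPM and Nfkb2-206 had 31.1 and 53.5 TPM. Nfkb2-201, Nfkb2-202 and Nfkb2-204 have reading frames of 899 codons. The short processed transcript Nfkb2-203 had 15.5 and 18.9 TPM in the first quantification and 35.1 and 55.7 TPM in the second.

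The retained-intron transcript Nfkb2-207 had 23.0 TPM in replicate 1 and 20.5 TPM in replicate 2, and 33.0 and 38.2 TPM in the second quantification. It keeps 2 short introns whole, of 121 and 80 bases, and their donor sites are shown in the same layout for contrast with the long Nfkb1 introns. Introns are numbered in Nfkb2-201 and, for Relb, in Relb-202.
Nfkb2-207, donor of intron 3, chr19:46306345-46306384: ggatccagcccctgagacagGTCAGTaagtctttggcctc
Nfkb2-207, donor of intron 13, chr19:46309055-46309094: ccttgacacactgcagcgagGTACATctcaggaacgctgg
Relb-208, donor of intron 5, chr7:19617742-19617781: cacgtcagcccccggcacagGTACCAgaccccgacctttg
Relb-208, a retained-intron transcript of Relb, covers 77.3% of the 1324 bases of Relb intron 5. It had 3.70 and 5.68 TPM in replicates 1 and 2, and 11.7 and 16.6 TPM in the second quantification.

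On the opposite strand 2 genes overlap Nfkb2, and no strand setting of the counting is given in the sources used here. Psd, which shares 299 bases with the 3' end of Nfkb2, had 39.1 TPM in replicate 1 and 72.2 TPM in replicate 2. AC114539.1, a long non-coding RNA gene that shares 1292 bases with the 5' end, had 9.85 and 15.9 TPM. Reads of Nfkb2 and of these genes may be shared, so part of their values is uncertain.

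For Relb the quantifications assigned reads to different transcripts. Its coding transcripts Relb-201 and Relb-202 differ by 9 bases in length. The first quantification put 36.0 and 33.3 TPM on Relb-202 in replicates 1 and 2 and 0 and 0.79 TPM on Relb-201, whereas the second put 32.2 and 25.4 TPM on Relb-201 and 2.38 TPM or less on Relb-202. Summed, they had 36.0 and 34.0 TPM in the first quantification and 34.6 and 25.4 TPM in the second. The retained-intron transcripts of Relb summed to 17.7 TPM in replicate 1 and 26.9 TPM in replicate 2, and its coding transcripts to 40.4 and 40.5 TPM. In the second quantification the sums were 25.4 and 44.2 TPM for retained-intron and 40.2 and 32.6 TPM for coding transcripts. Within the retained-intron group the assignment also switched: Relb-206 had 13.6 and 21.2 TPM in the first quantification and at most 0.152 in the second, where Relb-205 had 13.6 and 27.4 TPM. In the first quantification Relb-204 had 3.34 and 4.66 TPM and Relb-209 had 2.80 and 4.77 TPM. In the second Relb-204 had 9.47 and 16.6 TPM and Relb-209 had 4.89 and 7.03 TPM. The nonsense-mediated decay transcript Relb-210 had 8.42 and 4.11 TPM in the first and 5.99 and 4.67 TPM in the second.

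Rela-201, the full-length coding transcript of 549 codons, had 14.1 TPM in replicate 1 and 24.3 TPM in replicate 2, or 45.4% and 58.2% of the gene. The short retained-intron transcript Rela-203, of 786 bases, had 9.47 and 14.1 TPM in the first quantification and 25.4 and 29.8 TPM in the second. By estimated counts of the first Rela-203 held 10.1% and 10.8% of the gene, against 30.4% and 33.6% by TPM. TPM weights short transcripts up. Nonsense-mediated decay transcripts of Rela, mainly Rela-206, had 5.57 and 1.42 TPM in the first quantification and 15.5 and 18.2 TPM in the second. Rela-207 had 1.94 and 2.01 TPM in the first quantification and 14.6 and 15.1 TPM in the second. The level of Rela-201 in the second, 10.4 and 16.6 TPM, was below that in the first, so the higher Rela total there lay on its other transcripts.

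The only transcript of Rel is 7466 bases long, of which 23.6% is coding sequence for 588 codons. Coding sequence made up 60.6% of Rela-201 and 96.9% of Nfkb1-206. By estimated count without length scaling Rel ranked above Relb and Rela in both libraries.

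Genes that act with the subunits were taken as a list of 51, of which 44 were expressed and 50 could be tested. None passed the 2-fold test in either direction, against 11.8% of genes tested, and the list's median log2 ratio after TMM scaling was -0.11, beside -0.12 for expressed protein-coding genes. All 7 IkB genes were expressed, with medians of 53.3 and 64.8 TPM, the highest of the groups. Nfkbia, which encodes the inhibitor IkB alpha, led with 253 TPM in replicate 1 and 437 TPM in replicate 2 (345 ± 130, SD, n = 2), at a level between Nfkb2 and Nfkb1. In the second quantification Nfkbia had 451 and 808 TPM, above Nfkb1 in both libraries. Nfkbiz, a nuclear IkB, had 137 ± 58.4 TPM.

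**Figure D5:**
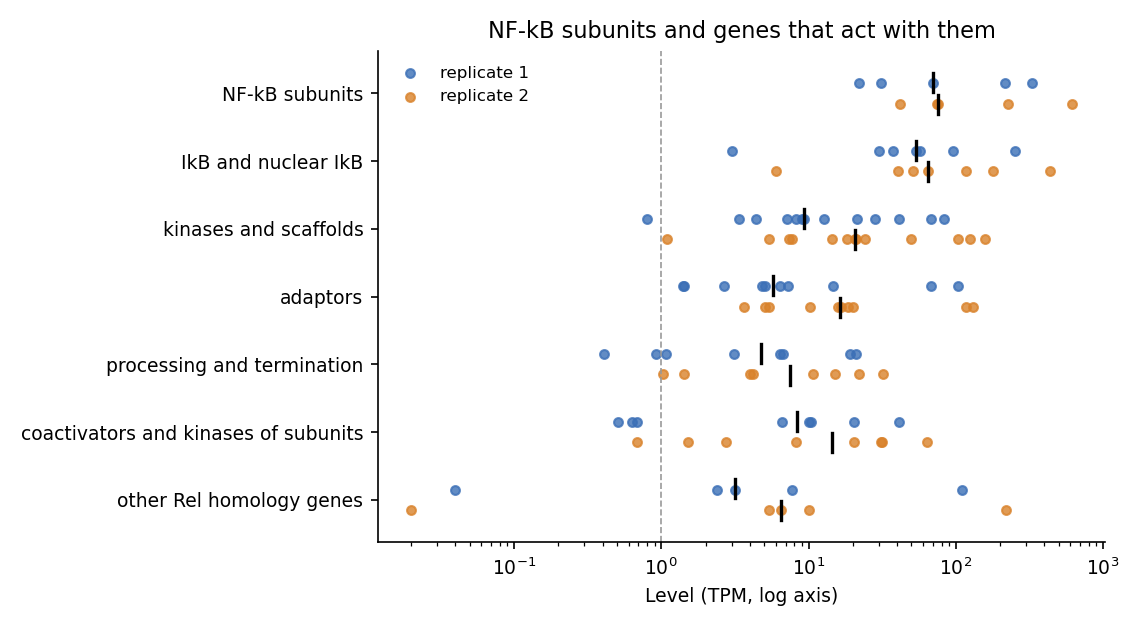
TPM (log axis) of the subunit genes and of 51 genes that act with them, by group, each point a gene in replicate 1 (blue) or replicate 2 (orange), with bars at the group medians and a dashed line at 1 TPM. The subunits and the IkB genes have the highest medians in both libraries.

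Kinases and scaffolds of the pathway had 12 of 13 genes expressed and medians of 9.32 and 20.8 TPM. All 10 receptor and adaptor genes were expressed, with medians of 5.73 and 16.2 TPM, and Tlr4 itself had 1.43 and 5.42 TPM. Of genes for processing and termination 6 of 8 were expressed, of coactivators and kinases of subunits 5 of 8, and of the other Rel homology genes 4 of 5. Nfat5, a Rel homology protein that responds to osmotic stress, had 165 ± 77.3 TPM. The lowest of the list in the first quantification were Nfatc4 at 0.03, Prkaca at 0.595 and Commd1 at 0.715 TPM on average. In the second, Nfatc4 had 4.69 and 11.3 TPM, above Prkaca at 0.736 and 1.34 TPM. Nfkb1 exceeded each listed gene in both libraries in the first quantification, whereas in the second Nfkbia exceeded Nfkb1. Rel and Rela were below Nfkbia, Nfkbiz and Nfat5 in both libraries.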

How the data were processed

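Chromatin-fraction RNA was measured in 2 libraries of 1 group of lipid A-stimulated macrophages. Per the deposited text, the authors aligned reads to the transcriptome of mm10 (GENCODE M21) and deposited expected counts, TPM, FPKM, the percent of a gene on each transcript, posterior standard deviations and credibility bounds, per gene and per transcript. A further deposited table of estimated counts and TPM per transcript, made by the authors straight from the reads, is called the second quantification. No aligner, quantifier, version or strand setting is given in the sources used here.

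Rows that matched no annotated gene (26345, holding 0.409% of counts in replicate 1 and 0.277% in replicate 2) were left out. Expected counts were rounded. Genes whose counts summed to at least 20 were compared between libraries with an exact binomial test (two-sided, scipy 1.17.1) at shares scaled by TMM with edgeR 4.0.16. Adjustment was by Benjamini-Hochberg over all of them, and a call needed an adjusted p under 0.05 and a fold of 2. TMM factors were 0.810 and 1.24. The test was checked on counts simulated for this comparison with counting error only. They covered 12114 genes with summed counts of at least 50, 200 of them changed 4-fold. It recovered 191 of the 200, none in the wrong direction, with 1 false call. By summed count these were 129 of 129 at 200 or more and 62 of 71 below that, a division made after the recovery was seen. A chi-square of 489 per degree of freedom showed that the libraries were not copies. The simulation held no such difference between libraries, so its false calls do not tell how many occur here. A count of 3 equals 0.140 CPM in replicate 1 and 0.101 CPM in replicate 2, and intervals cover counting error only. Ratios of TPM + 1 understate differences of low genes. Alternatives were DESeq2 1.42.0 size factors, library size alone, no count filter, any fold, the second quantification, the pseudocount, counts without length scaling, TPM over protein-coding genes, a 10 TPM threshold, leaving out each replicate and, chosen after seeing the data, coding transcripts alone and other scales for the 2 kinds of Nfkb1 transcript.

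Named are the 5 subunit genes and their transcripts at 5% or more of the gene's TPM in a library in the first quantification. Also named are the highest and lowest 3 and any called gene of the pathway list and the 2 nearest genes in level. Genes that overlap a subunit gene or start within 1 kb of one are named too. Nfkb1-201, Nfkb2-204, Relb-201, Relb-205, Tlr4 and the markers named were added after their values were seen. The members and lists were chosen with earlier results of these data known.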

Additional observations from a re-analysis of the deposited data

How the results depend on the processing

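The 5 subunit genes were expressed under each alternative tried, also at 10 TPM. Called at 2-fold between the libraries were 1 of 5 (Rel) with library size alone and 1 of 5 (Nfkb2) in the second quantification. Of all genes tested these settings called 27.5% and 8.96%. At any fold 5 of 5 had an adjusted p under 0.05, against 50.6% of genes tested. DESeq2 size factors and no count filter gave 0 at 2-fold, against 11.7% and 7.76%. Levels rescaled over protein-coding genes were 2422 TPM for Nfkb1, 1220 for Nfkb2, 228 for Rel, 195 for Rela and 402 for Relb. Coding transcripts alone gave 106 TPM for Nfkb1, 182 for Nfkb2, 19.2 for Rela and 40.4 for Relb. The second quantification gave 269 TPM for Nfkb2, 84.8 for Rela and 89.6 for Relb.

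The log2 ratio to Rela was 2.55 for Nfkb1, 1.68 for Nfkb2, -1.04 for Rel and 0.092 for Relb in the second quantification. By estimated counts without length scaling it was 4.37 for Nfkb1, 3.32 for Nfkb2, 2.28 for Rel and 1.31 for Relb. On coding transcripts alone it was 2.51 for Nfkb1, 3.29 for Nfkb2 and 1.13 for Rel. The mean for Rel, 0.17, was the one whose sign differed among alternatives, and leaving out replicate 1 or 2 gave 0.84 or -0.50.

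The share of transcript TPM on transcripts that are not coding was 9.82% by counts and 32.7% in the second quantification for Nfkb2, against 17.7%. It was 23.6% and 75.3% for Rela, against 48.2%, and 50.2% and 58.6% for Relb, against 44.5%. The log2 ratio of replicate 2 to replicate 1 of Nfkb1 coding transcripts, 0.09 by TPM, was -0.60 relative to the median gene and -0.94 after TMM scaling. Of 67 values recomputed under alternatives other than a left-out replicate, 17 stayed near the value reported. Near meant within its spread or counting interval or, for counts of genes, within a fixed ratio. Levels rescaled over protein-coding genes are on another scale and had to leave that spread. Values without a replicate are not counted, since with 2 libraries they cannot leave that spread. The cause of the differences between quantifications was not tested. No paired analysis was possible because there is 1 group. With 2 libraries and no other condition, neither depth nor these tests bear on a response to lipid A.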
